A study of Mus musculus with 44 samples.

Results

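Collagens are the main structural proteins of the extracellular matrix, and the 42 collagen genes described here were those whose single annotated symbol reads Col, a number, the letter a and a number. They are 42 of 18193 genes measured on 44 Affymetrix arrays of mouse tissue. The mice were B6C3F1 hybrids given 2-butoxyethanol (2BE), a glycol ether solvent known to lyse red blood cells in rodents through its metabolite butoxyacetic acid, or vehicle. Arms are named here by the sample titles; a treatment label gives the 2BE arm as reduced oxygen and the other arm as control. The groups were liver at 4 h (4 2BE and 3 vehicle arrays), spleen at 4 h (4 and 4), liver at 7 d (5 and 4), bone marrow at 7 d (5 and 5) and spleen at 7 d (5 and 5). All animals were killed under ketamine and acepromazine. Liver came from the left lateral lobe, spleen as part of a cross-section and marrow from the right humerus. Dose, route, sex and age are not given in the sources used here, nor is it said whether the tissues of a number came from 1 animal, so p-values measure the spread between these samples.

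Each collagen is made of 3 chains wound into a triple helix, and the genes fall into classes by what the helices build. Fibrillar collagens, such as types I, III and V in soft connective tissue and bone and types II and XI in cartilage, form the cross-banded fibrils that carry tension. Basement membrane collagens form sheets under endothelium and epithelium and around smooth muscle: type IV is the network itself, and types XV and XVIII are anchored to it. In bone marrow the fibrillar types belong mainly to bone-forming and stromal cells, whereas in liver and spleen they belong to stellate cells, reticular fibroblasts and capsule. The 42 genes comprised 11 fibrillar, 8 basement membrane, 5 beaded filament (type VI), 9 fibril-associated, 3 short-chain network and 4 transmembrane genes, plus Col7a1 and Col26a1. They were read by 82 probe sets, 15 genes by 1 and 27 by several. Each gene is given by its brightest probe set, averaged over the 44 arrays.

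Promoter stretches of 3 fibrillar genes that behaved differently are shown here. Col1a2 and Col11a1 fell in the marrow and Col5a1 did not, while Col5a1 was the fibrillar gene that rose most in the spleen at 7 d. The stretches run from base -250 to base -66 before the annotated start, 185 bases each, on the plus strand of GRCm38.p6, from RefSeq. They lie at chr6:4505368-4505552 for Col1a2, chr3:114030290-114030474 for Col11a1 and chr2:27886175-27886359 for Col5a1. Capitals mark matches to 3 motifs searched on both strands: the CCAAT box, the TATA box (letters TATAAA) and the GC box (letters GGGCGG). A match on the minus strand stands in the printed strand as the reverse complement.
Col1a2: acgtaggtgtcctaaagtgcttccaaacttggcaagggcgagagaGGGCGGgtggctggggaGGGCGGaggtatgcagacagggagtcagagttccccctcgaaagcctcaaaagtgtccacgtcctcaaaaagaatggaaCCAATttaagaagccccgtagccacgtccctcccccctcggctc
Col11a1: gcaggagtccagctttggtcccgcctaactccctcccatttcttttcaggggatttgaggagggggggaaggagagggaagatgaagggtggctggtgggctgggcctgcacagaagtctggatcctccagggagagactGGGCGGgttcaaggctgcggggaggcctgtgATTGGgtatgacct
Col5a1: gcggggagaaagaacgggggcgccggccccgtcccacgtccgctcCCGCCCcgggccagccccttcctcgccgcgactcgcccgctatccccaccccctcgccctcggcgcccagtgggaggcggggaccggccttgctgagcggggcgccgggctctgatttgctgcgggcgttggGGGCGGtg
The Col1a2 stretch held 1 CCAAT and 2 GGGCGG matches, the Col11a1 stretch held 1 CCAAT match on the minus strand and 1 GGGCGG match, and the Col5a1 stretch held 2 GGGCGG matches and 0 CCAAT matches. None of these 3 stretches held TATAAA. Bases nearer the start than -66 were not searched, so no TATAAA count given here covers a TATA box lying there. Over all 32851 RefSeq promoter entries, the same stretch held CCAAT in 25.9%, GGGCGG in 21.8% and TATAAA in 8.55%. Of the collagen genes, 33 had entries that could be searched, with 36 stretches, of which 10 held CCAAT, 12 GGGCGG and 4 TATAAA. The matches describe these letters only.

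Values are intensities after RMA, compared as log2(intensity + 1). A gene was called higher or lower at an adjusted p under 0.05 (limma with Benjamini-Hochberg adjustment over 18193 genes). The 5 sets of arrays had different medians (41.2 to 42.5 per array in the liver at 4 h and 87.0 to 89.2 in the spleen at 4 h, for example), so levels were compared within a set. The defining markers of the labelled tissues were present: all 7 hepatocyte genes were above the lower quartile of genes in both liver sets, all 5 B cell genes in both spleen sets and all 5 granulocyte progenitor genes in the marrow. Presence alone does not tell spleen from marrow, since the granulocyte progenitor genes also passed that level in the spleen and the B cell genes in the marrow. Vehicle replicate 3 of the spleen at 4 h had a summed granulocyte progenitor level of 32158, against 1358 to 6048 in the other vehicle arrays and 2310 to 8579 in 2BE spleens. Its erythroid sum was 41497 (23904 to 31616 in the other vehicle arrays) and its B cell sum 10178 (17500 to 22410). Without it 4 collagen genes were called there, namely 3 as higher and 1 as lower, where 5.65% of all genes were called. Adipocyte markers stood apart in a few spleen arrays: Adipoq, an adipocyte hormone, had 13.8, 18.7, 2483 and 121 in 2BE spleens at 4 h, against 11.7, 14.3, 14.5 and 69.2 in vehicle spleens, and at 7 d it had 17.1 to 21.7 in 2BE spleens, against 16.7, 1869, 18.0, 528 and 444 in vehicle spleens. Counts of calls in the spleen are therefore also given without 2BE arrays 3 and 4 and vehicle array 4 at 4 h and without vehicle arrays 2, 4 and 5 at 7 d, sets chosen after the data were seen.

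Across the family, 31 genes were called in at least 1 of the 5 comparisons of 2BE with vehicle. The 11 called in none were Col4a4, Col4a5, Col4a6, Col15a1, Col18a1, Col6a5, Col8a1, Col9a2, Col9a3, Col12a1 and Col19a1. In the marrow 14 collagen genes were lower and 0 higher, where 20.1% of all genes were called (9.40% higher and 10.7% lower). In the spleen at 7 d 10 were higher and 12 lower, where 64.4% of all genes were called (32.4% higher and 32.0% lower), so that the family's share was not above that of genes in general. In the spleen at 4 h 4 were higher and 1 lower, where 5.16% of all genes were called (3.31% higher and 1.85% lower). None were called in the liver, where 4.51% of all genes were called at 4 h and 0.748% at 7 d. The heat map of log2 fold changes shows the marrow fall lying in the fibrillar block and the type IV pair changing sign in the spleen between 4 h and 7 d.

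**Figure D1:**
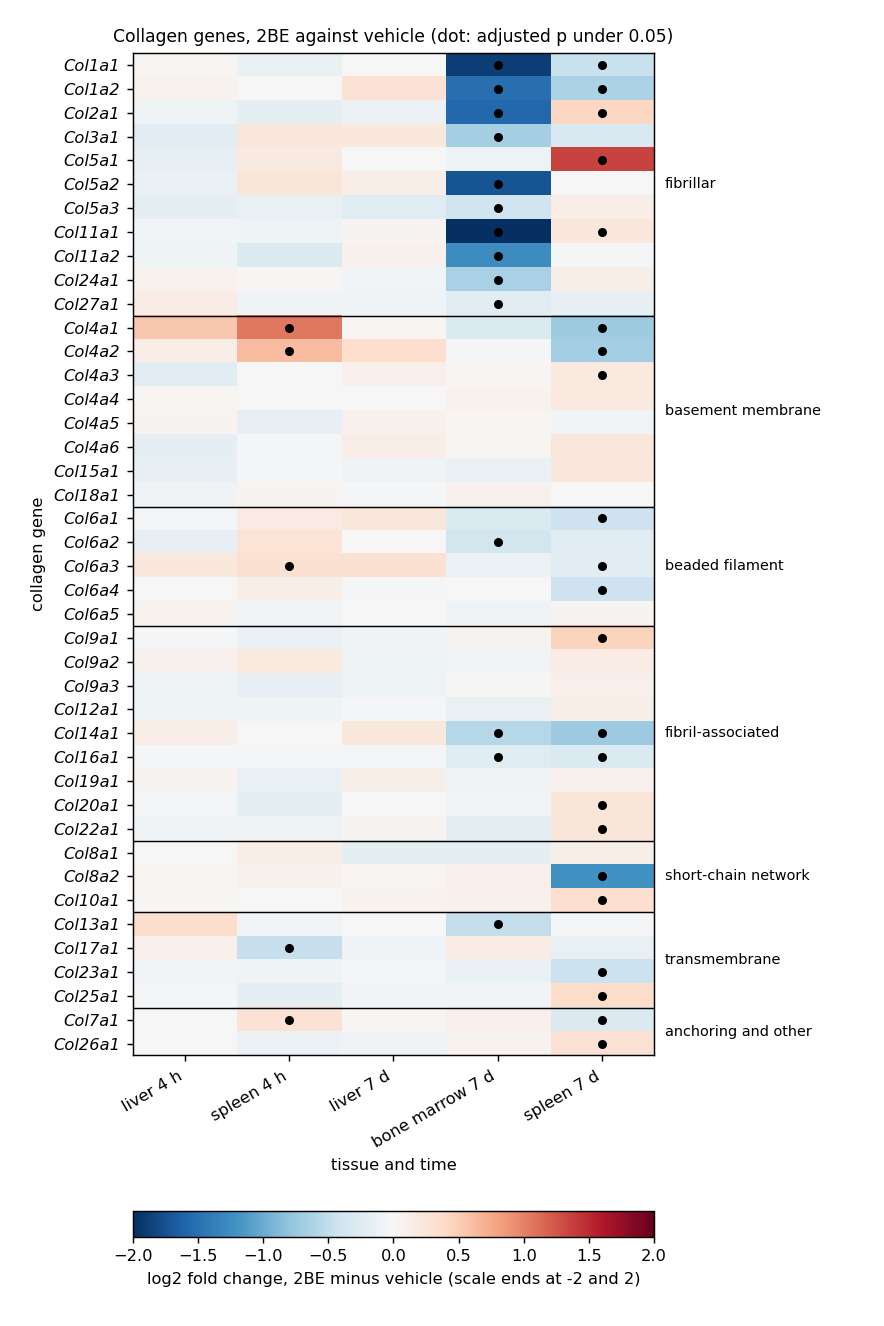
Log2 fold change of 2BE over vehicle for the 42 collagen genes (rows, grouped by class) in the 5 tissue and time sets (columns); red is higher and blue lower with 2BE, and black dots mark adjusted p under 0.05. The darkest blue block is the fibrillar class in bone marrow at 7 d, from Col11a1 at -2.13 to Col27a1 at -0.20 among those called; the strongest reds are Col5a1 in the spleen at 7 d (1.35) and Col4a1 in the spleen at 4 h (1.05).

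Fibrillar collagen genes fell in the marrow after 7 d of 2BE, and basement membrane genes did not pass the test there. Of 11 fibrillar genes 10 were lower, all but Col5a1, and 0 of 8 basement membrane genes were called in either direction. Of these 8, Col4a1 was called lower in alternative fits given further below. Over all genes 10.7% were lower. The median log2 fold change was -1.26 over the fibrillar genes and 0.04 over the basement membrane genes, beside 0.01 over all genes. In 8 of the 11 fibrillar genes all 2BE arrays lay below all vehicle arrays, a separation that 8.45% of all genes showed. The arrays hold RNA of whole tissue, so fewer cells of a type and less RNA per cell cannot be told apart.

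Type I collagen, the main protein of bone matrix, is built from the Col1a1 and Col1a2 chains. Col1a1 had intensities of 5265, 2120, 2401, 3254 and 10229 in 2BE marrow, against 13931, 14244, 12791, 14031 and 17412 in vehicle marrow. Every 2BE array lay below every vehicle array, and replicate 5 of the 2BE arm lay nearest to them. The log2 fold change was -1.89 (SE 0.32, adjusted p = 0.000929 in limma), a 3.70-fold lower level. Col1a2 had 7950, 3070, 3659, 6370 and 14438 in 2BE marrow, against 16825, 17436, 15303, 16938 and 20071 in vehicle marrow. It fell by 1.51 on the log2 scale (SE 0.31, adjusted p = 0.00355 in limma), again without overlap. A second probe set of Col1a1 fell by 1.16, and of the other probe sets of Col1a2 1 fell by 1.68 and the other, which was dim, had a log2 fold change of -0.18.

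Col11a1, a chain of the type XI collagen found inside cartilage fibrils and also made by bone-forming cells, showed the largest change of the family in any comparison. It had 503, 224, 251, 355 and 1075 in 2BE marrow, against 1788, 2034, 1454, 1468 and 2280 in vehicle marrow. The arms did not overlap, and the fall was 2.13 on the log2 scale (SE 0.33, adjusted p = 0.000419), or 4.38-fold. Col11a2, its partner chain, had 280, 223, 171, 249 and 439 in 2BE marrow, against 620, 681, 518, 545 and 788 in vehicle marrow. It fell by 1.26 (SE 0.19, adjusted p = 0.000419). Col2a1, the chain of type II collagen in cartilage, had 297, 253, 261, 301 and 575 in 2BE marrow, against 564, 1503, 872, 909 and 1186 in vehicle marrow. Here the arms overlapped at 1 array, since 2BE replicate 5 lay just above vehicle replicate 1, and the fall was 1.57 (SE 0.25, adjusted p = 5e-04). Of the 7 chondrocyte markers beside them 0 were called, and Matn1, Matn3, Hapln1 and Cnmd lay below the lower quartile of genes in the marrow. The summed chondrocyte level was 248 to 287 in 2BE marrow and 249 to 273 in vehicle marrow.

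Type V chains, which sit in the core of type I fibrils and limit their diameter, split. Col5a2 had 959, 483, 608, 786 and 1909 in 2BE marrow, against 2744, 2961, 2289, 2436 and 3781 in vehicle marrow, with no overlap. It fell by 1.73 (SE 0.28, adjusted p = 0.000582). Col5a1 had 512 to 666 in 2BE marrow and 595 to 734 in vehicle marrow, and the arms overlapped (log2 fold change -0.11, SE 0.08, adjusted p = 0.379). Its other 2 probe sets stood at 0.05 and -0.03. Col5a3 had 127, 129, 120, 113 and 131 in 2BE marrow, against 144, 133, 186, 168 and 197 in vehicle marrow, a fall of 0.40 (SE 0.10, adjusted p = 0.00931), which was 0.25 when the mean of its probe sets was taken.

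Col3a1, the type III chain that accompanies type I in soft tissue, had 659, 419, 613, 643 and 956 in 2BE marrow, against 1246, 879, 753, 1029 and 1227 in vehicle marrow. It fell by 0.66 (SE 0.18, adjusted p = 0.0198), with overlap at 2BE replicate 5. This call was lost without vehicle replicate 1 (adjusted p = 0.0539) or vehicle replicate 5 (0.0532). Col24a1, a minor fibrillar gene of bone, had 14.3 to 19.1 in 2BE marrow and 21.8 to 27.8 in vehicle marrow, below the lower quartile of genes in both arms, and fell by 0.65 (SE 0.08, adjusted p = 0.000105). The last member, Col27a1, known from cartilage, had 212 to 244 in 2BE marrow and 255 to 274 in vehicle marrow, a fall of 0.20 (SE 0.05, adjusted p = 0.0131).

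**Figure D2:**
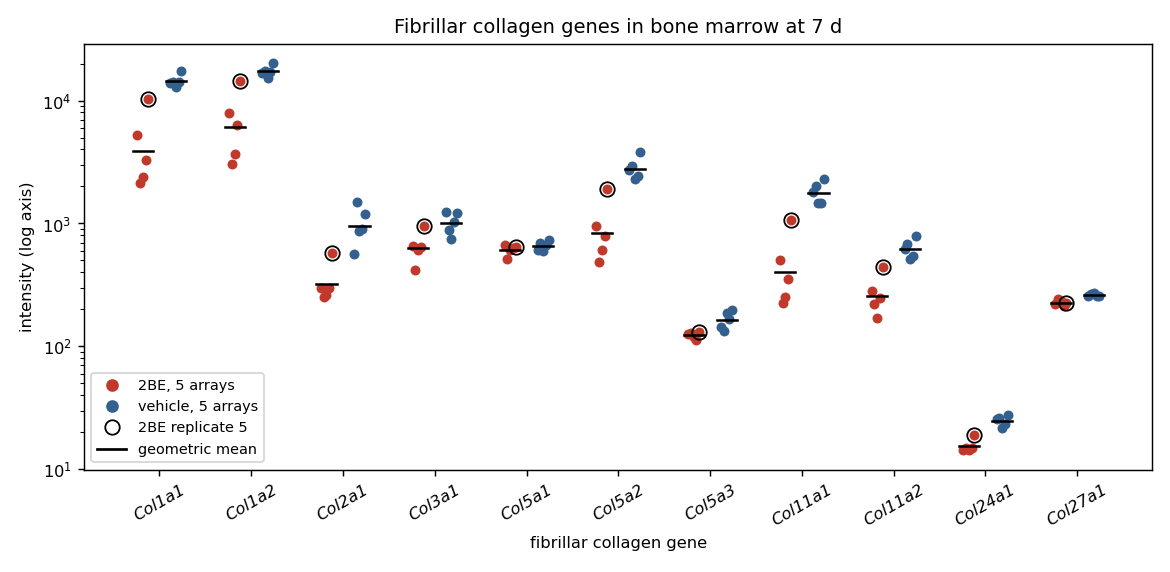
Intensity (log axis) of the 11 fibrillar collagen genes on the 5 2BE (red) and 5 vehicle (blue) arrays of bone marrow at 7 d; bars are geometric means and open circles mark 2BE replicate 5. For Col1a1 the 2BE arrays sit between 2120 and 10229, all below the vehicle arrays at 12791 to 17412, and in Col2a1 and Col3a1 the circled array lies among the vehicle arrays.

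The 2BE marrow arrays differed in how far they fell. The median shift of the 11 fibrillar genes from the vehicle mean was -1.12, -1.48, -1.86, -1.32 and -0.37 for 2BE replicates 1 to 5, against shifts from -0.17 to 0.27 for single vehicle arrays. The same 2BE arrays had basement membrane medians between -0.04 and 0.10. Without 2BE replicate 5 the log2 fold change was -2.24 for Col1a1 and -2.48 for Col11a1, and 17 collagen genes were lower in place of 14, where 20.2% of all genes were called. Without that array Col4a1, which had 246 to 397 in 2BE marrow and 346 to 415 in vehicle marrow, was also lower (-0.37, adjusted p = 0.0126, against -0.29 and adjusted p = 0.0658 with all arrays). With all arrays and the replicate numbers as a block, Col4a1 was called lower as well (-0.29, adjusted p = 0.03 in limma).

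Outside the fibrillar class, which holds 11 of the 42 genes, 4 collagen genes were lower in the marrow. Over all genes 10.7% were lower there, so this share was close to that of genes in general. Col14a1, a fibril-associated collagen of type I fibrils, had 220, 170, 155, 193 and 138 in 2BE marrow, against 200, 272, 281, 270 and 272 in vehicle marrow, a fall of 0.57 (SE 0.12, adjusted p = 0.00426). Only vehicle replicate 1 lay among the 2BE arrays. Col13a1, a transmembrane collagen, had 56.8 to 79.6 in 2BE marrow and 80.1 to 101 in vehicle marrow (log2 fold change -0.47, SE 0.09, adjusted p = 0.00228). Col16a1, another fibril-associated gene, had 123 to 139 in 2BE marrow and 141 to 170 in vehicle marrow (-0.25, SE 0.06, adjusted p = 0.0126). For Col6a2, a chain of the beaded filaments that surround cells, the values were 335 to 591 in 2BE marrow and 504 to 631 in vehicle marrow (-0.37, SE 0.12, adjusted p = 0.0433); its call was lost when any single array other than 2BE replicate 5 was left out.

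Genes for the proteins that fold, cross-link and bind collagen fibrils were also lower where they were called in the marrow. Lox, the enzyme that cross-links collagen chains, had 317, 173, 210, 284 and 478 in 2BE marrow, against 825, 772, 667, 664 and 1029 in vehicle marrow, and fell by 1.50 (SE 0.21). Sparc, a collagen-binding matrix protein of bone, had 2641, 1463, 1696, 2387 and 5649 in 2BE marrow, against 7132, 6811, 5822, 6058 and 8219 in vehicle marrow, and fell by 1.46 (SE 0.27). Of the 11 processing and cross-linking genes these were the 2 called. Among 19 folding and modification genes 5 were lower and 0 higher, with Plod2 (lysyl hydroxylase) at -1.16 and Serpinh1 (the collagen chaperone Hsp47) at -0.82. Among 13 proteoglycans and fibril partners 5 were lower, with Dcn at -1.36, Lum at -1.07, Omd at -0.77 and Bgn at -0.70. Of 14 breakdown genes 4 were lower, led by the gelatinase gene Mmp2 (-0.88), and of 12 TGF-beta genes 6 were lower, led by Ltbp2 (-0.60). The 17 basement membrane partners gave 3 lower and 1 higher, and the 9 receptors 1 lower. The 7 list medians lay between -0.22 and -0.02, beside 0.01 over all genes, of which 20.1% were called.

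Markers of several cell types moved in the same arrays, where 20.1% of all genes were called (9.40% higher and 10.7% lower). Of 6 osteoblast and bone matrix markers 3 were lower: Sp7, the transcription factor of osteoblasts, at -0.44, Ibsp at -0.57 and Alpl at -0.56. Sp7 had 85.8 to 101 in 2BE marrow and 116 to 148 in vehicle marrow. Vehicle livers at 7 d also gave 120 to 125 for Sp7, so its signal was not particular to marrow. Ibsp had 14.3 to 17.5 in those livers, against 384 to 575 in vehicle marrow. The summed level of the 6 markers was 828 to 1309 in 2BE marrow and 1164 to 1477 in vehicle marrow, which overlap. Fibroblast markers were lower in 4 of 11, with a summed level of 2102 to 2423 in 2BE marrow and 2603 to 3112 in vehicle marrow, and endothelial markers in 3 of 12. All 5 B cell markers were lower (summed level 1866 to 3170 in 2BE marrow, against 6476 to 8161 in vehicle marrow) and 5 of 7 erythroid markers higher (48952 to 55049, against 36122 to 46077). Macrophage markers gave 2 lower of 8 (7728 to 9703, against 9731 to 10355). The 2BE arrays also differed among themselves in these lists. The osteoblast sum was 981, 983, 828, 1018 and 1309 for 2BE replicates 1 to 5. For skeletal muscle it was 1852, 1284, 808, 1178 and 2632, against 900 to 1540 in vehicle marrow, and for granulocyte progenitors 36089, 30442, 32087, 32167 and 42781, against 39027 to 41088. Replicate 5, where the fibrillar genes fell least, had the highest of all 3 sums in its arm. That place was not particular to these 3 lists. Replicate 5 also had the highest fibroblast (2423), adipocyte (4174), B cell (3170) and macrophage (9703) sums of the 2BE arm. Its erythroid (48952) and smooth muscle (1227) sums were the lowest there. The part of these markers in the collagen result was not tested.

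Fibrillar genes did not move as 1 group in the spleen at 7 d: 3 were higher, 2 lower and 6 not called, with a median of 0.00. Over all genes 32.4% were higher and 32.0% lower. Col5a1 rose while both type I chains fell. Col5a1 had 874, 687, 764, 817 and 674 in 2BE spleens, against 242, 317, 304, 329 and 305 in vehicle spleens. The arms were far apart, and the rise was 1.35 on the log2 scale (SE 0.14, adjusted p = 3.32e-07), or 2.55-fold. Its other 2 probe sets rose by 1.39 and 1.44. In contrast to the marrow, its partner chain Col5a2 had 403 to 563 in 2BE spleens and 473 to 544 in vehicle spleens, a log2 fold change of 0.00.

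Both type I collagen genes were lower in each 2BE array of the spleen at 7 d than in any vehicle array. Col1a2 had 1540, 1666, 2144, 1892 and 2271 in 2BE spleens, against 2919, 2832, 2927, 3102 and 2854 in vehicle spleens, a fall of 0.64 (SE 0.10, adjusted p = 2.81e-05). Col1a1 had 267, 330, 337, 346 and 360 in 2BE spleens, against 386, 465, 429, 494 and 451 in vehicle spleens, a fall of 0.44 (SE 0.09, adjusted p = 0.000287). Col3a1 had 1501 to 2128 in 2BE spleens and 1859 to 2759 in vehicle spleens and was not called (log2 fold change -0.30, SE 0.15, adjusted p = 0.0794). Col3a1 was called lower with the spread of its own arrays (adjusted p = 0.0478 in limma), with the replicate block (0.00989) and with array weights (0.0258). It was also called without vehicle replicate 1 (-0.39, adjusted p = 0.031). In the other alternatives, among them leaving out vehicle arrays 2, 4 and 5, it was not called. Those arrays of higher Adipoq had 2759, 2659 and 2590 for Col3a1. Vehicle replicates 1 and 3 had 1859 and 2078, within the range of the 2BE arrays. The cartilage genes Col2a1 (0.41, adjusted p = 0.000326) and Col11a1 (0.22, adjusted p = 0.0222) were higher, at 68.9 to 98.7 in 2BE spleens, against 60.5 to 71.2 in vehicle spleens, for Col2a1. Col11a1 lay below the lower quartile of genes there, at 21.6 to 30.8 in 2BE spleens and 21.3 to 24.3 in vehicle spleens.

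**Figure D3:**
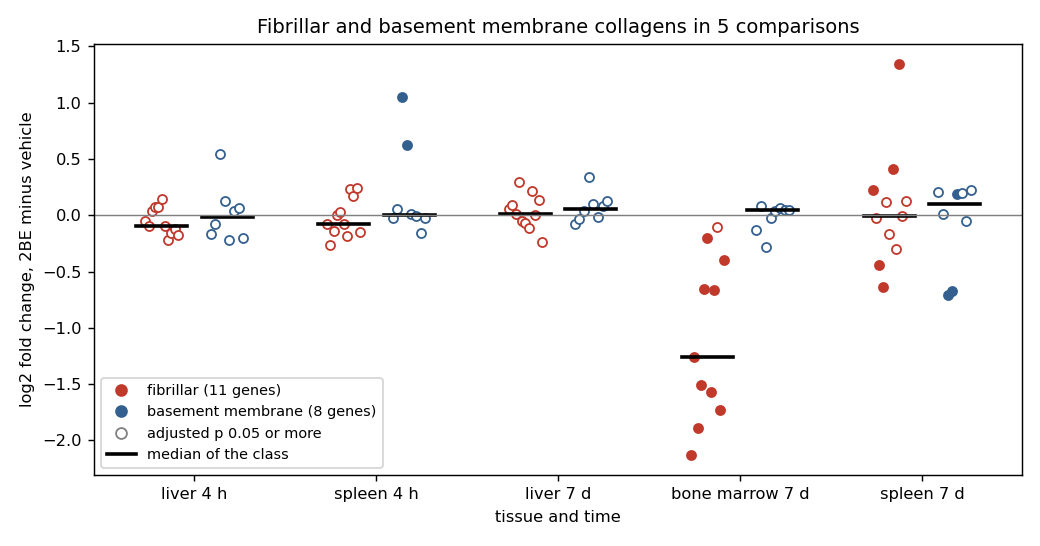
Log2 fold change of 2BE over vehicle for each fibrillar (red, 11 genes) and basement membrane (blue, 8 genes) collagen in the 5 comparisons; filled points have adjusted p under 0.05 and black bars are class medians. In bone marrow the fibrillar median is -1.26 and the basement membrane median 0.04; in the other 4 sets both medians lie between -0.09 and 0.10.

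Basement membrane collagen RNA rose early in the spleen and was lower there at 7 d, for the 2 chains that make up the common type IV network. Col4a1 had 2666, 2905, 1993 and 3119 in 2BE spleens at 4 h, against 1058, 1110, 1113 and 2007 in vehicle spleens. Vehicle replicate 4 stood at the level of the lowest 2BE array, so the arms overlapped. The rise was 1.05 (SE 0.16, adjusted p = 0.000412), or 2.07-fold. Col4a2 had 1194, 1484, 1087 and 1493 in 2BE spleens, against 771, 776, 757 and 1122 in vehicle spleens, again with vehicle replicate 4 apart, and rose by 0.62 (SE 0.12, adjusted p = 0.00404). With the spread taken from the 4 h spleens alone, the adjusted p of Col4a2 was 0.0698. A second probe set of Col4a1 rose by 0.50.

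At 7 d Col4a1 had 1051, 1101, 1248, 1083 and 1078 in 2BE spleens, against 1858, 1653, 1917, 1843 and 1805 in vehicle spleens. Col4a2 had 472, 527, 578, 542 and 582 in 2BE spleens, against 939, 800, 877, 827 and 869 in vehicle spleens. Neither gene overlapped between arms, and the falls were 0.71 (SE 0.14, adjusted p = 0.000345) and 0.68 (SE 0.11, adjusted p = 3.13e-05). The second Col4a1 probe set fell by 0.39. The difference between the 7 d and the 4 h response was itself tested: it was -1.76 for Col4a1 (SE 0.22, adjusted p = 9.11e-06) and -1.30 for Col4a2 (SE 0.16, adjusted p = 1.08e-05), where 51.3% of all genes and 18 of 42 collagen genes differed.

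Col4a1 and Col4a2 lie head to head on chromosome 8 of GRCm38.p6, and their annotated starts, from RefSeq, overlap by 22 bases. In the order liver 4 h, spleen 4 h, liver 7 d, marrow and spleen 7 d, the log2 fold changes were 0.55, 1.05, 0.03, -0.29 and -0.71 for Col4a1 and 0.13, 0.62, 0.34, -0.03 and -0.68 for Col4a2. The other type IV genes did not follow them: Col4a3, Col4a4, Col4a5 and Col4a6, the chains of specialised membranes such as that of the kidney, gave 1 call in 5 comparisons, Col4a3 at 0.19 in the spleen at 7 d (adjusted p = 0.0388), and Col4a3 and Col4a4 lay below the lower quartile of genes in all 5 sets. A second probe set of Col4a5 stood at -0.85 in the spleen at 7 d, where the one used stood at -0.05. Col15a1 and Col18a1, the source of endostatin, were called in none of the 5 comparisons. Col18a1 had 185 to 254 in 2BE spleens at 4 h and 194 to 240 in vehicle spleens, and 234 to 249 in 2BE spleens at 7 d and 218 to 260 in vehicle spleens. For Col15a1 in the spleen at 7 d the log2 fold change was 0.20 (SE 0.10, adjusted p = 0.0827), and it passed with the replicate block (adjusted p = 0.0461), without vehicle replicate 4 (0.0389) and without 2BE replicate 3 (0.0446).

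**Figure D4:**
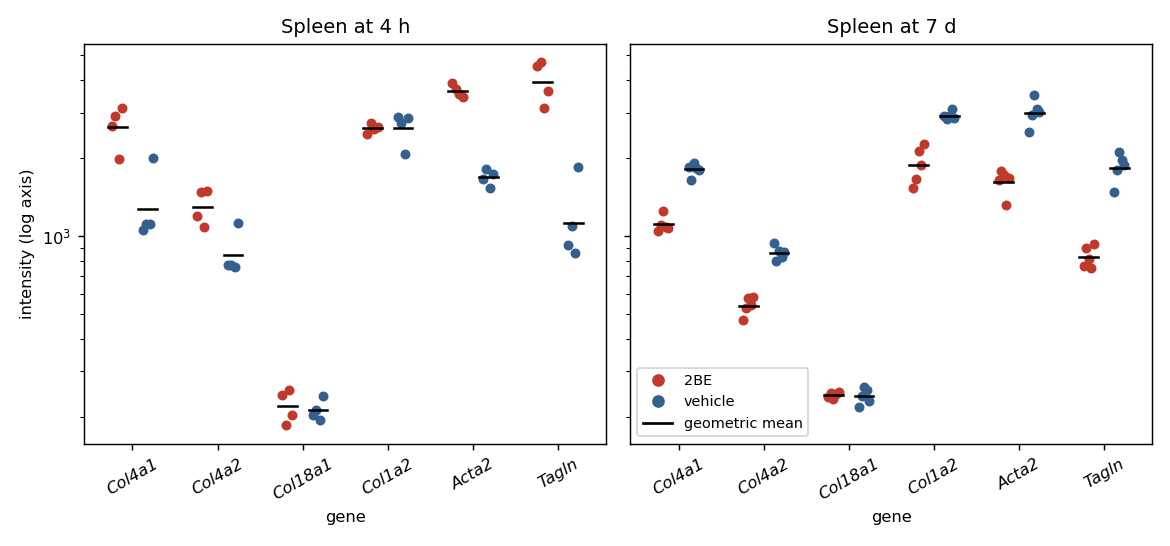
Intensity (log axis) per array of Col4a1, Col4a2, Col18a1, Col1a2 and the smooth muscle genes Acta2 and Tagln in spleen at 4 h (left) and 7 d (right), 2BE in red and vehicle in blue, with geometric means as bars. Col4a1 lies at 1993 to 3119 with 2BE, against 1058 to 2007 with vehicle, at 4 h and at 1051 to 1248, against 1653 to 1917, at 7 d; Acta2 and Tagln are also above vehicle at 4 h and below it at 7 d.

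Smooth muscle genes moved with the type IV pair in the spleen, where 3.31% of all genes were higher at 4 h and 32.0% lower at 7 d. At 4 h 5 of 7 smooth muscle markers were higher, with Acta2 at 3910, 3722, 3547 and 3464 in 2BE spleens, against 1667, 1824, 1531 and 1743 in vehicle spleens, and Tagln at 4537, 4710, 3137 and 3643, against 923, 1097, 858 and 1844. Vehicle replicate 4 had the highest Tagln level of its arm, as it had for Col4a1 and Col4a2. This was not so for Acta2 or for Smtn, another of these markers (133, against 148 in vehicle replicate 3). The same array also had the highest fibroblast (7948), endothelial (6670), adipocyte (672) and mesothelium (429) sums of the vehicle arm, beside the highest smooth muscle sum. The summed smooth muscle level was 8234 to 10162 in 2BE spleens and 3479 to 4835 in vehicle spleens. By 7 d 6 of 7 of these markers were lower, with a sum of 2971 to 3799 in 2BE spleens and 5594 to 7579 in vehicle spleens. Endothelial markers gave 2 higher of 12 at 4 h (Cldn5 and Cdh5) and 11 lower of 12 at 7 d, with a sum of 4784 to 6075 in 2BE spleens and 8663 to 10690 in vehicle spleens at 7 d. The part of these cells in the type IV result was not tested. Without vehicle array 4 and 2BE array 3 of the 4 h spleen together, 5 collagen genes were called, where 3.57% of all genes were called. With 2BE array 4 left out as well, 2 genes were called, Col4a1 (1.35, adjusted p = 1.53e-07) and Col4a2 (0.79, adjusted p = 0.000313), where 2.68% of all genes were called.

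The other 3 calls in the spleen at 4 h were smaller. Col6a3, a type VI chain, had 354, 357, 342 and 433 in 2BE spleens, against 277, 296, 293 and 338 in vehicle spleens (0.30, SE 0.09, adjusted p = 0.0484). Col7a1, the anchoring fibril collagen, had 272, 275, 271 and 280 in 2BE spleens, against 222, 216, 216 and 248 in vehicle spleens (0.29, SE 0.07, adjusted p = 0.0175). Col17a1, a transmembrane collagen of epithelia that lay below the lower quartile of genes, had 21.6, 24.0, 22.5 and 22.2 in 2BE spleens, against 36.1, 29.9, 29.0 and 31.0 in vehicle spleens (-0.46, SE 0.10, adjusted p = 0.00946). In each of these 3 the arms did not overlap, a separation that 4.78% of all genes showed with 2BE higher and 6.95% with 2BE lower. The Col6a3 call was lost in 6 of the 8 fits that left out 1 array (adjusted p = 0.0641 to 0.18), with the spread of these 8 arrays alone (0.144), with the replicate block (0.0774), after a further quantile normalization (0.0856), with array weights (0.072) and in the trended robust fit (0.0508). The Col7a1 call was lost without vehicle replicate 2 (adjusted p = 0.059), without 2BE replicate 4 (0.0531), with the spread of these arrays alone (0.0561) and with the replicate block (0.093), and that of Col17a1 with the replicate block (0.053). All 3 were lost without the 3 arrays of higher Adipoq (0.127, 0.0692 and 0.13 for Col6a3, Col7a1 and Col17a1). The number called was 3 without vehicle replicate 2 or without 2BE replicate 4, and 2 with the spread of these 8 arrays alone. The fibrillar genes gave 0 calls of 11, with Col1a1 at -0.14, Col1a2 at 0.00 and Col3a1 at 0.23 (adjusted p = 0.488, 0.996 and 0.488 in limma).

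Of the genes that act on collagen, those that control its breakdown and those of TGF-beta signalling, which is known to induce matrix genes, also gave calls in the spleen at 4 h, where 5.16% of all genes were called. Ccn2 (connective tissue growth factor) had 4773 to 8595 in 2BE spleens and 651 to 1858 in vehicle spleens, a rise of 2.61 (SE 0.27). Timp3, a matrix-bound inhibitor of metalloproteinases, rose by 1.65 (SE 0.24), Tgfb3 by 1.53 (SE 0.13), Mmp3 by 1.30, Timp1 by 1.05 and Mmp14 by 0.61, while Mmp16 fell by 0.54. Of 14 breakdown genes 4 were higher and 1 lower, and of 12 TGF-beta genes 2 were higher. The 19 folding genes had 2 higher, Fkbp14 at 0.63 and P4ha2 (prolyl hydroxylase) at 0.57, and the 17 basement membrane partners 1, the laminin gene Lamc1 at 0.37. Processing genes, proteoglycans and receptors gave 0 calls.

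In the spleen at 7 d the largest fall of the family was that of Col8a2, a short-chain collagen known from the membrane under corneal endothelium. It had 56.1, 71.9, 77.6, 72.3 and 71.6 in 2BE spleens, against 162, 165, 174, 144 and 164 in vehicle spleens, and fell by 1.21 (SE 0.12, adjusted p = 1.42e-07), or 2.31-fold. The arms were far apart, and Col8a2 has 1 probe set. Col14a1 had 757, 934, 1114, 1018 and 954 in 2BE spleens, against 1620, 1437, 1634, 1633 and 1566 in vehicle spleens, a fall of 0.73 (SE 0.10, adjusted p = 6.88e-06). A second Col14a1 probe set fell by 0.79, whereas the dimmest stood at 0.10.

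Type VI collagen gave 3 lower of 5 genes at that time, where 32.0% of all genes were lower. Col6a1 had 280, 371, 404, 281 and 330 in 2BE spleens, against 372, 516, 397, 471 and 454 in vehicle spleens (-0.41, SE 0.14, adjusted p = 0.0126), with overlap, and its call was lost without vehicle arrays 2, 4 and 5 (adjusted p = 0.313) or after a further quantile normalization (0.111). Col6a3 stood at -0.23 (adjusted p = 0.0136). Col6a4 had 165 to 216 in 2BE spleens and 254 to 276 in vehicle spleens (-0.41, SE 0.09, adjusted p = 0.00081), but its other probe set stood at 0.39 and the mean of its probe sets at -0.01 (adjusted p = 0.948). Also lower were Col23a1 (-0.43), Col7a1 (-0.28) and Col16a1 (-0.28).

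Among the 10 higher genes only Col5a1 and Col9a1 had all 2BE arrays above all vehicle arrays, and 11 of the 12 lower genes had all of them below. No other collagen gene showed either separation, so these were 2 and 11 of all 42. Over all genes the shares were 20.0% above and 26.7% below, so neither collagen share was above that of genes in general. Col9a1, a chain of the fibril-associated type IX collagen of cartilage, had 130, 152, 131, 125 and 107 in 2BE spleens, against 95.5, 89.6, 94.7, 106 and 82.8 in vehicle spleens (0.45, SE 0.09, adjusted p = 0.00023). A second Col9a1 probe set stood at 0.07. The remaining higher genes were Col2a1, Col11a1, Col25a1 (0.37), Col10a1 (0.33), Col26a1 (0.30), Col22a1 (0.24), Col20a1 (0.24) and Col4a3. The number of higher genes was 5 without vehicle replicate 5, 2BE replicate 2 or 2BE replicate 4 and 14 without 2BE replicate 5, while the number lower stayed at 12 in those 4 settings. Without vehicle arrays 2, 4 and 5 together, 5 were higher and 10 lower, where 52.5% of all genes were called.

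**Figure D5:**
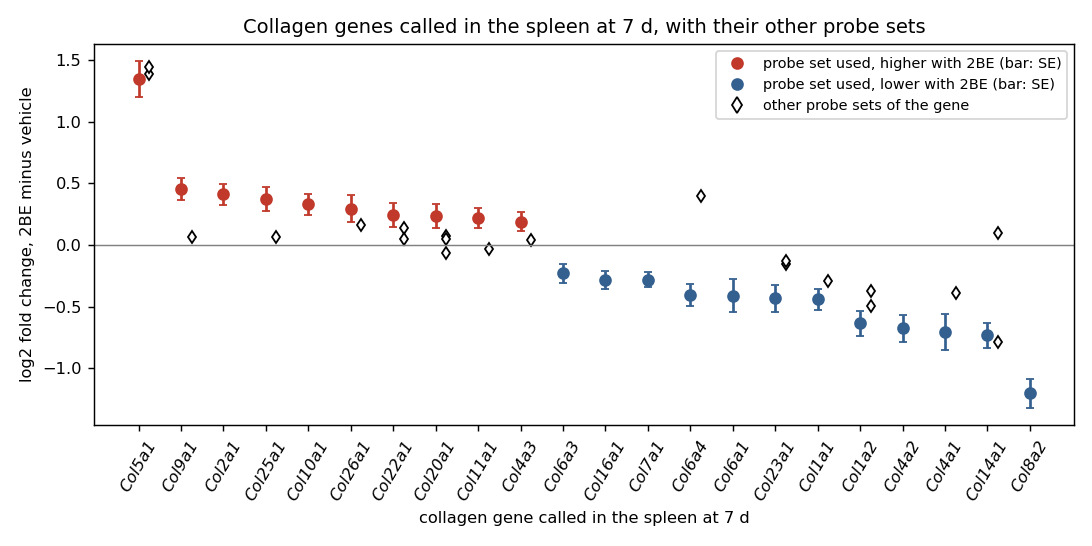
Log2 fold change of 2BE over vehicle for the 22 collagen genes called in the spleen at 7 d, with the SE as bars (red higher, blue lower), and the other probe sets of each gene as open diamonds. All probe sets of Col5a1 lie between 1.35 and 1.44, while those of Col9a1, Col25a1 and Col6a4 differ from the probe set used.

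Stromal and vascular markers were lower in the same spleens: 7 of 11 fibroblast markers, with a summed level of 3208 to 5230 in 2BE spleens and 6969 to 7772 in vehicle spleens, beside the smooth muscle and endothelial lists above. All 7 erythroid markers were higher (57727 to 70348 in 2BE spleens, against 7305 to 19512 in vehicle spleens) and all 5 B cell markers lower (5624 to 14660, against 28357 to 33194). Macrophage markers gave 5 lower and 1 higher of 8 (12240 to 16531, against 19444 to 23215). Pancreatic acinar markers gave 3 higher of 5 (1479 to 1735, against 834 to 907), skeletal muscle markers 2 higher of 6 (620 to 691, against 403 to 474) and chondrocyte markers 4 higher of 7 (302 to 388, against 262 to 310). Granulocyte progenitor sums were 1199 to 1552 in 2BE spleens, against 698 to 941 in vehicle spleens, with 0 of 5 genes called. The part of these markers in the collagen values was not tested. Collagen folding genes were lower in 16 of 19, led by Serpinh1 with 385, 341, 549, 385 and 448 in 2BE spleens, against 906, 956, 790, 823 and 847 in vehicle spleens (-1.05, SE 0.13), and followed by Hsp90b1 (-0.88), P3h2 (-0.84) and P4ha1 (-0.81). Proteoglycans and fibril partners gave 9 lower and 1 higher of 13, with Dcn at -1.46 and Thbs1 at -1.20, and TGF-beta genes 10 lower of 12, with Skil at -1.29, Tgfbr2 at -1.19 and Ccn2 at -1.13. The list medians were -0.46 for folding, -0.87 for proteoglycans and -0.997 for TGF-beta genes, beside 0.05 over all genes and 0.03 over the 42 collagen genes. Processing genes gave 4 lower and 2 higher of 11 (Pcolce2 at -1.27, Adamts3 at 0.58), basement membrane partners 7 lower and 4 higher of 17 (Nid1 at -0.86, Agrn at 0.41), breakdown genes 5 lower and 1 higher of 14 (Timp3 at -1.18) and receptors 3 lower of 9 (Itga1 at -1.02). Since 64.4% of all genes were called in this comparison, 32.4% higher and 32.0% lower, the shares called in the processing, breakdown and receptor lists were below that of all genes, and that of the basement membrane partners was close to it.

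Collagen genes in the liver gave 0 calls at either time in limma, with 3 of 42 at an unadjusted p under 0.05 at 4 h and 4 of 42 at 7 d. No share of all genes at that unadjusted level is given here. These counts therefore do not show more or fewer collagen genes than genes in general. The nearest was Col4a1 at 4 h, with 337, 378, 334 and 603 in 2BE livers, against 275, 267 and 280 in vehicle livers. All 2BE arrays lay above all vehicle arrays, a separation that 6.6% of all genes showed, with 2BE replicate 4 well above the rest (log2 fold change 0.55, SE 0.16, adjusted p = 0.0637). It passed without 2BE replicate 1 (adjusted p = 0.0338) or 2BE replicate 3 (0.0438). Col4a2 had 303, 296, 314 and 395 in 2BE livers, against 290, 299 and 303 in vehicle livers (0.13, adjusted p = 0.651). At 7 d it had 542, 453, 426, 465 and 483, against 416, 306, 355 and 430 (0.34, adjusted p = 0.159). At 7 d 0 of 42 collagen genes had arms that did not overlap, where 5.33% of all genes did.

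The type I and III genes of the liver showed no call either. At 4 h Col3a1 had 585, 178, 668 and 238 in 2BE livers, against 536, 429 and 319 in vehicle livers, so that the 2BE arrays lay on both sides of the vehicle arrays (-0.22, SE 0.35). Col1a1 stood at 0.04 and Col1a2 at 0.07 at 4 h, and at 0.01 and 0.30 at 7 d (adjusted p = 0.923, 0.88, 0.983 and 0.405 in limma). Col18a1, which hepatocytes are known to make, had 3663 to 4767 in 2BE livers and 4027 to 4542 in vehicle livers at 4 h, and 5663 to 6697 and 5490 to 7055 at 7 d. Around them Ccn2 rose by 1.64 at 4 h (232 to 413 in 2BE livers, against 82.9 to 104 in vehicle livers). Skil rose by 1.14, Fkbp14 by 0.70, Timp3 by 0.63 and Smad7 by 0.54, while Pcolce2 fell by 0.66, each called without pairs. These were the 6 genes called at 4 h in the 7 pathway lists, whose sizes are given above for the marrow. Over all genes 4.51% were called. With the replicate numbers as pairs, 1 of these 6 was called, Ccn2 (1.48, adjusted p = 0.0264), and the others had log2 fold changes of 1.03 (Skil), 0.58 (Fkbp14), 0.61 (Timp3), 0.55 (Smad7) and -0.62 (Pcolce2), with adjusted p of 0.15, 0.244, 0.354, 0.376 and 0.109. Col4a1 then stood at 0.35 (adjusted p = 0.223). The vehicle arm has no replicate 4, so 2BE replicate 4, the highest for Col4a1 at 603, has no partner and adds nothing to the paired fit. How much of these changes came from pairing and how much from losing that array was not tested. At 7 d Smad7, an inhibitor of TGF-beta signalling, was the 1 gene called in the 7 pathway lists, at -0.68, where 0.748% of all genes were called. In that paired fit 0 collagen genes were called in the liver at 4 h, and 0.451% of all genes in place of 4.51%.

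Responses were also compared between tissues and times in tests of the difference itself, which share arrays with the comparisons above. The marrow response minus the spleen response at 7 d passed in 21 collagen genes, 15 lower and 6 higher, where 44.9% of all genes passed (25% higher and 19.9% lower). Col11a1 (-2.35), Col2a1 (-1.98), Col5a2 (-1.73), Col5a1 (-1.46) and Col1a1 (-1.45) were lower in this difference, with adjusted p of 0.000765 or less in limma. Col8a2 (1.30, SE 0.09, adjusted p = 2.59e-12 in limma) and Col4a2 (0.65, SE 0.12) were higher in this difference, both having fallen in the spleen. Col8a2 lay below the lower quartile of genes in the marrow, at 17.3 to 20.6 with 2BE and 16.2 to 17.8 with vehicle. It also did so in the liver at 7 d, at 14.6 to 15.1 and 14.2 to 14.7. These dim arrays are part of the spread, and so of the SE and p, in the tissue differences of Col8a2 at 7 d. The spleen response minus the liver response at 7 d passed in 16, 5 higher and 11 lower (57.0% of all genes, 27.4% higher and 29.6% lower), with Col5a1 at 1.35, Col8a2 at -1.24, Col4a2 at -1.01 and Col14a1 at -0.94. At 4 h that difference passed in 1 gene, Col17a1 (-0.56, SE 0.11, adjusted p = 0.0172), where 1.78% of all genes passed (0.841% lower), so the Col4a1 response was not shown to differ between spleen and liver. The liver response at 7 d minus that at 4 h passed in 0 collagen genes, where 0.269% of all genes passed. At an unadjusted p under 0.05 in limma there were 2 collagen genes, with no share of all genes at that level given here. Of the 14 genes lower in the marrow, 4 were also lower in the spleen at 7 d, 2 were higher and 8 were not called there.

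Probe sets of 1 gene did not always move together. A second probe set of Col12a1, a fibril-associated collagen, stood at 1.07 in the spleen at 4 h and -0.56 in the spleen at 7 d, where the probe set used stood at -0.08 and 0.12. Of the 3 probe sets of Col22a1, the 2 dimmer ones stood at -0.52 and -0.90 in the marrow, where the one used stood at -0.19. These 2 genes were picked out after their values were seen. Neighbouring genes of a chromosome formed 7 pairs in the family. Of these, Col3a1 and Col5a2, which adjoin, stood at -0.66 and -1.73 in the marrow, and Col6a2 and Col6a1 at -0.37 and -0.29.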

How the data were processed

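Values were intensity per probe set, deposited by the authors as 1 table and made with RMA per the submitters' processing notes (version not given in the sources used here). RMA corrects background, normalizes by quantiles and summarises probes, so levels near the floor are compressed. The sets of a tissue and time appear to have been normalized separately. Of 45101 probe sets 64 controls were left out, and 34945 had 1 symbol in the platform annotation, 932 several and 9160 none. A gene was its probe set with the highest mean; 18193 genes were tested on log2(intensity + 1), which understates changes of dim genes. limma 3.58.1 in R 4.3.3 fitted group means per tissue (lmFit, eBayes), with two-sided tests and Benjamini-Hochberg adjustment over all genes; tissue differences used the arrays of 1 time. SE is limma's moderated standard error. The number of arrays limits precision. The test was tested on simulated data.

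The members and all lists were chosen with earlier results of these data known. The rule for genes named took up to 12 called members per comparison by size, the type I, III, IV (Col4a1, Col4a2), XV and XVIII genes always, and up to 4 called genes per other list. Same-numbered arrays all deviated together in the liver at 4 h (correlations 0.132, 0.282 and 0.146), and their numbers were taken as pairs there alone. The other sets held negative values beside positive ones, some of them as large or larger. They ran from -0.381 to 0.543 in the spleen at 4 h and -0.162 to 0.085 in the liver at 7 d. In the marrow they ran from -0.0881 to 0.164 and in the spleen at 7 d from -0.157 to 0.238. The replicate block listed below takes the numbers as pairs in those sets too. Values printed are from the fit without pairs, and paired values stand beside them where a call changed. Alternatives were another spread, a replicate block, the mean of probe sets, a low-value filter (the lower quartile), a pseudocount of 16, a further quantile normalization, array weights, a trended robust fit and leaving out arrays.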

Additional observations from a re-analysis of the deposited data

Results flagged for a closer look

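Single arrays stood apart in 8 of 58 groups of 4 or 5 arrays examined, and chance alone gives about 1 in 20. In vehicle spleens at 4 h replicate 4 was high for Col4a1 (2007) and Col4a2 (1122). In 2BE marrow replicate 5 was high for Col2a1 (575) and Col24a1 (19.1). Vehicle replicate 1 of the marrow was low for Col14a1 (199.6). In the spleen at 7 d 2BE replicate 1 was low for Col8a2 (56.1), 2BE replicate 3 was high for Col4a1 (1248), and vehicle replicate 1 was low for Col5a1 (242).

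Responses that differed between times or tissues in a test of the difference were those of 18 collagen genes for the spleen at 7 d minus 4 h, among them Col4a1 (-1.76), Col4a2 (-1.30), Col8a2 (-1.30) and Col5a1 (1.18). For the spleen minus the liver it was 1 gene at 4 h, Col17a1 (-0.56). At 7 d it was 16 genes, among them Col5a1 (1.35), Col8a2 (-1.24), Col4a2 (-1.01) and Col14a1 (-0.94). Col8a2 lay below the lower quartile of genes in the liver. For the marrow minus the spleen at 7 d it was 21 genes, among them Col11a1 (-2.35), Col2a1 (-1.98), Col5a2 (-1.73) and Col5a1 (-1.46).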

How the results depend on the processing

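Of 975 alternatives run on 55 gene and comparison results, 928 kept the direction and the side of the threshold and 0 reversed. The 55 hold at most the 12 largest calls of a comparison, so weaker calls are left out. They also hold genes named whether called or not, for which keeping can mean staying not called. In the spleen at 4 h 5 collagen genes were called, 2 with the spread of its own arrays, 2 with the replicate block and 2 without the 3 arrays of higher Adipoq (arrays left out singly: 3 to 5). For the spleen against the liver at 4 h the count of 1 became 0 with the replicate block and 0 with the low-value filter. The fibrillar minus basement membrane median in the spleen at 7 d was -0.10, and -0.0343 with the mean of probe sets, -0.00639 with the low-value filter and -0.0189 after quantile normalization (-0.153 to -0.0225 with arrays left out singly); the cause was not tested. Leaving out single arrays gave 12 to 17 calls in the marrow, with a class difference of -1.43 to -1.14, 17 to 26 in the spleen at 7 d and 0 to 1 in the liver at 4 h, where the class difference ran from -0.09 to 0.05. The replicate block called 16 genes in the marrow and 24 in the spleen at 7 d and changed no liver count. In the spleen at 7 d higher and lower calls were 7 and 14 with the spread of its own arrays, 7 and 13 with the mean of probe sets and 6 and 12 with the low-value filter. With a pseudocount of 16 the dim Col17a1 stood at -0.30 in the spleen at 4 h and Col24a1 at -0.38 in the marrow. Of the 42 genes 9 to 12 per set lay below the lower quartile of genes, where RMA compresses differences.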
